A study of Homo sapiens with 6 samples.

Results

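Mitochondrial ribosomal protein genes were selected by symbol, as every row named MRPL or MRPS followed by a number and at most 1 further letter. This gave 78 of the 20030 rows, 49 named for the large subunit and 29 for the small subunit. Counts and sums by subunit follow these names, although MRPS18A and MRPS30 are known to sit in the large subunit and MRPS36 in another complex. All 78 passed the filter on low values and stood among the 11445 genes tested. The RNA-seq libraries come from HCT116, a human colon carcinoma cell line, and their values are in FPKM, a read abundance scaled by transcript length and library depth. The study compared 3 lines of stable cells with 2 libraries each. They are a line over-expressing the K178R form of TEAD4, a line over-expressing wild-type TEAD4 (WT) and a control line whose sample names carry the letters PQ. TEAD4 is a DNA-binding factor through which the Hippo pathway coactivators YAP and TAZ act on transcription. The labels name no agent, promoter or clone for any line, and every line is HCT116. The genotype field of WT replicate 2 reads TEAD5 wild type, while its title names TEAD4. Whether the paired libraries of each line were grown apart is not stated, so every p-value reflects library-to-library spread that may be purely technical.

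The mitochondrial ribosome translates the few messenger RNAs of the mitochondrial genome, which encode membrane subunits of the respiratory chain and the ATP synthase. Its RNAs are made in the organelle, whereas all of its proteins are encoded in the nucleus, translated in the cytosol and imported. Some of these proteins have bacterial homologues, and others are specific to mitochondria. ETS-family factors such as GABPA, and NRF1, are known regulators of nuclear genes for mitochondrial proteins.

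The promoters of 6 members that passed the test are shown, so that genes that moved in opposite directions can be read beside each other. Each is the 250 bases before the RefSeq gene start in GRCh38.p14, written 5′ to 3′ on the gene's strand, with capitals for the ETS core CCGGAAG or its reverse complement. MRPL20 lies on the minus strand (window chr1:1407294-1407543), as do MRPL3 (chr3:131502972-131503221), MRPL53 (chr2:74472681-74472930), MRPL38 (chr17:75904885-75905134) and MRPS25 (chr3:15065316-15065565). MRPL12 lies on the plus strand (chr17:81703117-81703366).
MRPL20: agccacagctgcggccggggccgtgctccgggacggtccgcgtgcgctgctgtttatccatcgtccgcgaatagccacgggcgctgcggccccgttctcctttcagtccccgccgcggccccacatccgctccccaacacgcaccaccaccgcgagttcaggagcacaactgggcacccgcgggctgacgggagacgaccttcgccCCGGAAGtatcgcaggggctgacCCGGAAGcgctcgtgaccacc
MRPL3: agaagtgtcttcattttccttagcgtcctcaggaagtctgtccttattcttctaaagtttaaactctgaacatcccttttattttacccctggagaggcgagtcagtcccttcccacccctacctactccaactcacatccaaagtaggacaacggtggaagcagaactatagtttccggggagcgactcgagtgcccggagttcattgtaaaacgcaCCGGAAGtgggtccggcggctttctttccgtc
MRPL53: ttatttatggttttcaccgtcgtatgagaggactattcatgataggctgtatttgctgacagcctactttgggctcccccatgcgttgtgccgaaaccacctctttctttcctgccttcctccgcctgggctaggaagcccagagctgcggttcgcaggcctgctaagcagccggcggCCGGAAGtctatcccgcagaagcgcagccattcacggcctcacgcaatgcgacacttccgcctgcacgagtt
MRPL38: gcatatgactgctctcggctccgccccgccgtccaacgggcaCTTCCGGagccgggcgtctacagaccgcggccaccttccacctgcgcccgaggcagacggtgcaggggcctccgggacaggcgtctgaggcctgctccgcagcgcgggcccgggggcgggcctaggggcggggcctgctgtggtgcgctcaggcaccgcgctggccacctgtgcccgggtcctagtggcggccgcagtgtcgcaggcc
MRPL12: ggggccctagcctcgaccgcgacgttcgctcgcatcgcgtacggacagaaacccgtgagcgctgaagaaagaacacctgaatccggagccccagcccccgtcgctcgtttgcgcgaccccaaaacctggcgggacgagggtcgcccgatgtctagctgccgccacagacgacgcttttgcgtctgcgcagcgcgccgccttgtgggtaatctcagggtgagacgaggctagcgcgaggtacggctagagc
MRPS25: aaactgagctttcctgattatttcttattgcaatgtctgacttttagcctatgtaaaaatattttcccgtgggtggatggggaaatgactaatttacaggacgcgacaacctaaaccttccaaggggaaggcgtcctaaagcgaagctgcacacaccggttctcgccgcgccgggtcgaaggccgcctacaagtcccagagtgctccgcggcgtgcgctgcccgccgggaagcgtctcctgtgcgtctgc
The promoters of MRPL20 and MRPL3, which were lower in the WT line than in the control line, and that of MRPL53, which was higher, all hold the core, as does that of MRPL38, which was lower in the K178R line. Those of MRPL12 and MRPS25, also lower in the WT line, hold none in this window.

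The RefSeq table held a promoter for 69 of the 78 members. The ETS core was found on either strand in 23 of them (33.3%), against 17.2% of the promoters of tested genes and 8.82% of all promoters in the table. The share was 33.3% for the large and 33.3% for the small subunit. The NRF1 core GCATGCGC was found in 6 member promoters (8.7%), against 5.02% of those of tested genes and 2.81% of all. The TEAD core GGAATG was in 9 (13.0%), against 9.23% and 11.9%, and the E-box CACGTG was in 6 (8.7%), against 9.12% and 6.49%. No motif contains another, though matches can share letters at their ends, and a match is a run of letters, not a shown binding site. Of the 23 members with the ETS core, 6 were higher and 3 lower in the WT line than in the control line, and of the 46 without it 7 were higher and 8 lower, beside 37.6% of all tested genes higher and 12.2% lower. Once libraries were set by their typical gene (median-of-ratios scaling), 1 was higher and 11 lower with the core and 0 higher and 19 lower without it, beside 22.5% and 25.2% of all tested genes. On that scale 2 of the 78 members were higher at an unadjusted p under 0.05 in limma. The transcript of GABPA, an ETS factor, had 9.14 and 7.89 FPKM in K178R, 8.09 and 8.15 FPKM in WT and 8.31 and 8.18 FPKM in control libraries, and passed the test in no comparison.

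**Figure D1:**
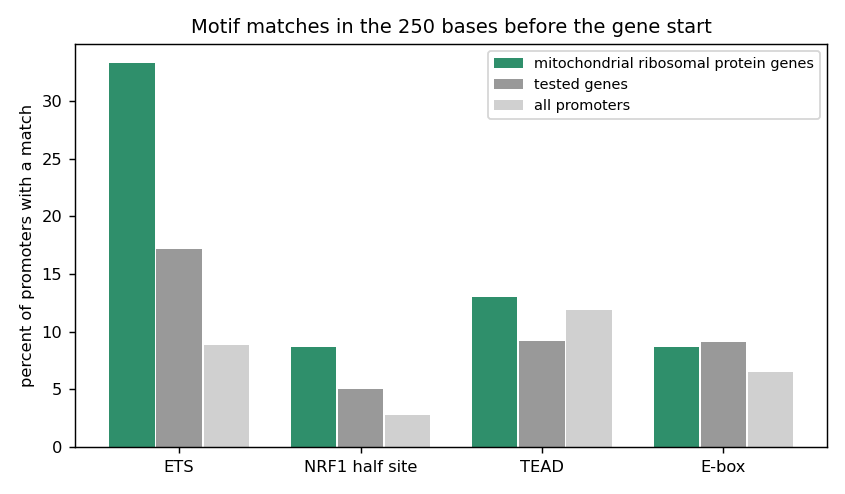
Percent of promoters (y axis) with at least 1 match to each of 4 motifs (x axis) in the 250 bases before the gene start, for 69 member promoters, 9086 promoters of tested genes and all 27305 promoters in the table. The ETS core stands at 33.3% in members, against 17.2% and 8.82% in the other sets.

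The libraries had similar summed values, 283195 to 305329 FPKM, and relative depths, estimated from ratios of low values between libraries, of 0.925 to 1.05 of control replicate 1. TEAD4 itself had 71.2 and 72.3 FPKM in K178R libraries, 86.4 and 84.4 FPKM in WT libraries and 16.6 and 17.5 FPKM in control libraries, so both TEAD4 lines carried more of its RNA than the control line. Of 7 colon epithelial markers, 2 stayed under 0.5 FPKM in every library, and the list summed to 2433 to 2443 FPKM in K178R, 1370 to 1407 FPKM in WT and 2137 to 2174 FPKM in control libraries. The sum does not stand for each marker. Of the 5 tested, 1 was higher and 2 lower in WT than in control as deposited, beside 37.6% and 12.2% of all tested genes. Fibroblast markers, with 3 of 6 at 0 in all libraries, summed to 1.73 to 1.88 FPKM in K178R, 3.64 to 3.78 FPKM in WT and 1.53 to 1.76 FPKM in control libraries. Leukocyte markers, with 1 of 6 at 0, summed to 2.67 to 3.15 FPKM in K178R, 5.20 FPKM in both WT libraries and 4.31 to 4.63 FPKM in control libraries. Endothelial markers (5 genes, none at 0 throughout) summed to 1.37 to 1.52 FPKM in K178R, 1.96 to 2.46 FPKM in WT and 2.02 to 2.13 FPKM in control libraries. Under 0.5 FPKM in every library were 5 of the fibroblast, 4 of the leukocyte and 4 of the endothelial markers, so these sums rest on few genes. The part of these marker levels in the results was not tested.

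Members spanned a wide range of levels. Mean FPKM over the 6 libraries ran from 3.51 for MRPS11, 6.20 for MRPL23 and 6.34 for MRPS14 up to 110.2 for MRPS24, 174.1 for MRPL51 and 201.3 for MRPL12. Fewer cells carrying a transcript and less of that transcript per cell cannot be told apart in such bulk values. The 2 libraries of a line lay close together, with a median coefficient of variation over members of 2.48% in K178R, 3.07% in WT and 2.49% in control. The widest pair was MRPL46 in K178R, with 21.2 and 27.9 FPKM.

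Summed over members, FPKM reached 3528 and 3615 in K178R libraries, 3694 and 3649 in WT libraries and 3714 and 3649 in control libraries. As a share of all FPKM this was 1.25% and 1.27% in K178R, 1.21% and 1.21% in WT and 1.26% and 1.24% in control. The WT share was below both other lines in each library. The sum over genes with large subunit names divided by that over genes with small subunit names, which no scaling of a library can change, was 1.70 ± 0.00437 in K178R, 1.72 ± 0.0255 in WT and 1.72 ± 0.0124 in control (SD, n = 2 each). The small subunit sum includes MRPS18A, MRPS30 and MRPS36, so this is a ratio by name and not by place in the ribosome. The K178R libraries (1.69 and 1.70) lay below the control libraries (1.72 and 1.73) by a gap about as wide as that between the control libraries, and the WT libraries (1.70 and 1.73) spanned most of the range.

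**Figure D2:**
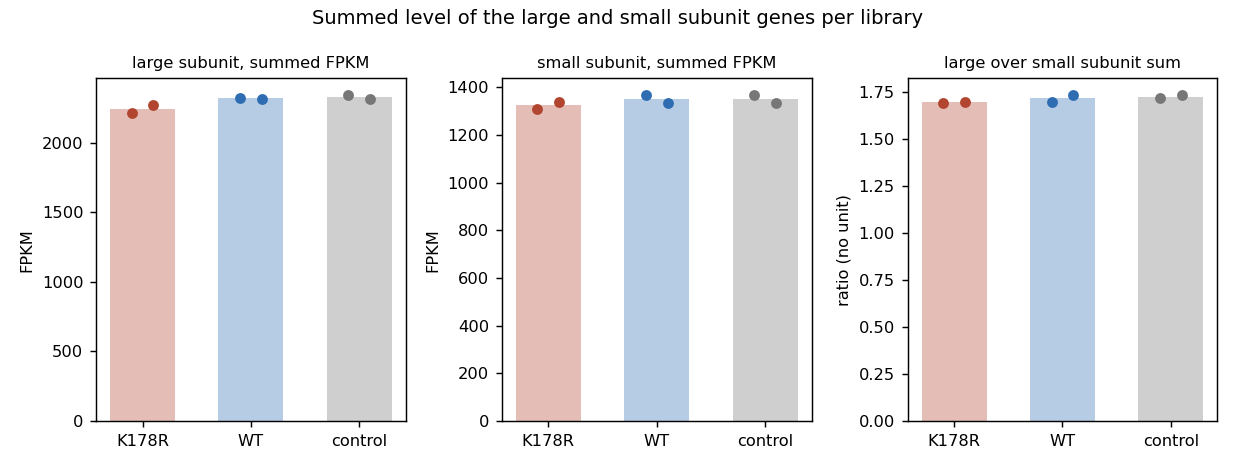
Summed FPKM of the 49 genes with large subunit names (left), the 29 with small subunit names (middle) and their ratio (right) in K178R, WT and control libraries. Bars are means of 2 libraries and points are the libraries, and the ratio lies between 1.69 and 1.73 in all 6.

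Against the control line, the WT line showed no common direction for these genes in the values as deposited. With limma and Benjamini-Hochberg adjustment, 14 members were higher and 12 lower at an adjusted p under 0.05, beside 37.6% of all tested genes higher and 12.2% lower. The large subunit had 10 higher and 8 lower of 49, and the small subunit 4 higher and 4 lower of 29. The median log2 difference was 0.0164 over members and 0.0926 over all tested genes, and it was 0.0095 for the large and 0.0419 for the small subunit. The lines' values did not overlap for 50 members (64.1%), against 76.8% of all tested genes. Median-of-ratios scaling moved the median of all genes to -0.00813 and that of members to -0.103. It then gave 1 member higher and 33 lower, beside 22.5% and 25.2% of all tested genes. The large subunit had 1 higher and 20 lower on that scale, and the small subunit 0 higher (also 0 at an unadjusted p under 0.05) and 13 lower.

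The clearest falls in the WT line were those called with and without scaling and in each of the 4 fits that left out 1 library of the pair. They were MRPL12, MRPL20, MRPL23, MRPL3, MRPL16, MRPL39 and MRPS25. MRPL12, a protein of the stalk that recruits translation factors and also a known partner of the mitochondrial RNA polymerase, had 205.2 and 220.5 FPKM in K178R, 176.7 and 179.4 FPKM in WT and 220.7 and 205.5 FPKM in control libraries. Both WT libraries were the lowest of the 6, and the other lines overlapped. Its WT mean was 178.1 ± 1.90 FPKM, 0.836 of the control mean of 213.1 ± 10.7 FPKM (SD, n = 2 each), a log2 difference of -0.26 ± 0.0437 (SE, adjusted p = 0.00255). MRPL20, a large subunit protein with a bacterial homologue, had 67.1 and 66.9 FPKM in K178R, 54.5 and 54.3 FPKM in WT and 64.6 and 62.4 FPKM in control libraries. The WT pair again lay lowest and the K178R pair highest, and the WT to control difference was -0.22 ± 0.0278 (adjusted p = 0.000742). MRPS25, a small subunit protein without a bacterial homologue, had 11.5 and 11.8 FPKM in K178R, 8.70 and 9.48 FPKM in WT and 11.3 and 11.4 FPKM in control libraries. The WT libraries were the lowest, at 0.799 of the control mean.

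MRPL3, a large subunit protein near the peptidyl transferase centre, had 111 and 112 FPKM in K178R, 102 and 101 FPKM in WT and 114 and 115 FPKM in control libraries. MRPL16, a core protein of the large subunit, had 57.4 and 56.7 FPKM in K178R, 52.7 and 50.2 FPKM in WT and 57.9 and 57.5 FPKM in control libraries. In both genes the WT pair stood lowest, with log2 differences of -0.17 for MRPL3 and -0.16 for MRPL16. MRPL39, a mitochondria-specific large subunit protein, differed in pattern, with 9.61 and 10.2 FPKM in K178R, 9.28 and 9.85 FPKM in WT and 11.3 and 11.3 FPKM in control libraries. Here both TEAD4 lines lay below the control line and overlapped each other. MRPL23, at the exit of the nascent peptide tunnel, was at 6.33 and 5.73 FPKM in K178R, 5.65 and 5.63 FPKM in WT and 6.96 and 6.88 FPKM in control libraries. The remaining 5 lower calls were lost in part when 1 library was left out. MRPL9 lost it without control replicate 1 (adjusted p = 0.0695), MRPS2 without WT replicate 1 or control replicate 1 (up to 0.0772) and MRPS18C without WT replicate 2 or control replicate 1 (up to 0.16). MRPS35 lost it without WT replicate 1 or either control library (up to 0.0827), and MRPL37 without any one of the 4 (0.0508 to 0.15).

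**Figure D3:**
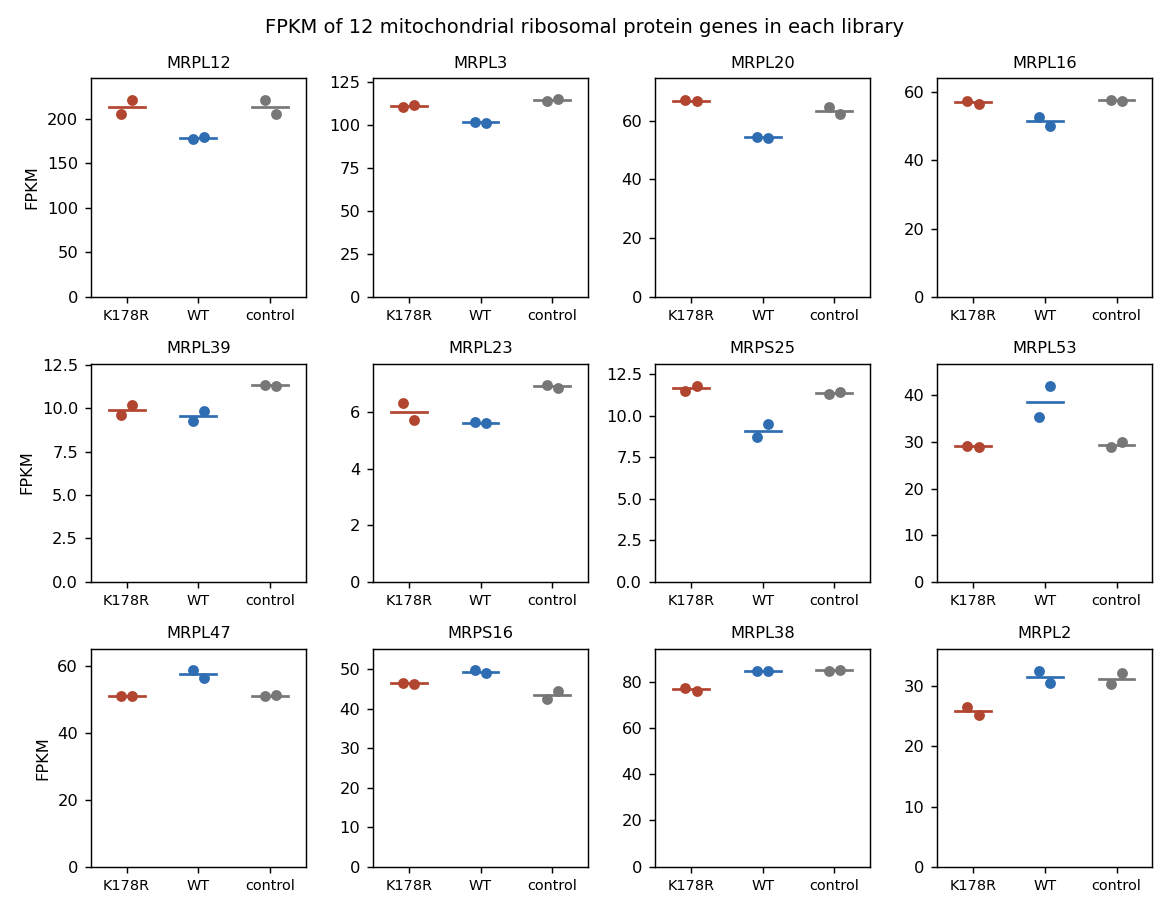
FPKM (y axis, from 0) of 12 members in the K178R, WT and control libraries. Points are libraries and lines are means of 2, and the WT pair is lowest for MRPL12, MRPL3, MRPL20, MRPL16, MRPL23 and MRPS25 and highest for MRPL53, MRPL47 and MRPS16.

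Of the 14 members higher in the WT line, MRPL53 alone passed the test with and without scaling. MRPL53, a mitochondria-specific large subunit protein, had 29.2 and 29.02 FPKM in K178R, 35.3 and 41.9 FPKM in WT and 28.9 and 30.02 FPKM in control libraries. Both WT libraries stood above the other 4, at 1.31 times the control mean, with a log2 difference of 0.38 ± 0.0708 (adjusted p = 0.00404) that became 0.26 with scaling (adjusted p = 0.0211). MRPL47, at the tunnel exit, had 50.9 and 51.1 FPKM in K178R, 58.8 and 56.3 FPKM in WT and 50.8 and 51.4 FPKM in control libraries. MRPS16, a small subunit protein with a bacterial homologue, had 46.5 and 46.3 FPKM in K178R, 49.8 and 48.96 FPKM in WT and 42.3 and 44.3 FPKM in control libraries. Their calls held in all 4 fits that left out a library, but not with scaling, where MRPL47 differed by 0.05 (adjusted p = 0.238) and MRPS16 by 0.06 (adjusted p = 0.144). The others were MRPL13, MRPL14, MRPL24, MRPL33, MRPL42, MRPL48, MRPL50, MRPL57, MRPS18A, MRPS31 and MRPS5. Each of these 11 missed the threshold with scaling and also without at least 1 library, with the highest adjusted p of each between 0.0565 and 0.234. Leaving out WT replicate 1 reduced the count of members higher to 6, control replicate 1 to 9 and control replicate 2 to 7. Leaving out control replicate 1 reduced the count of members lower to 7.

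**Figure D4:**
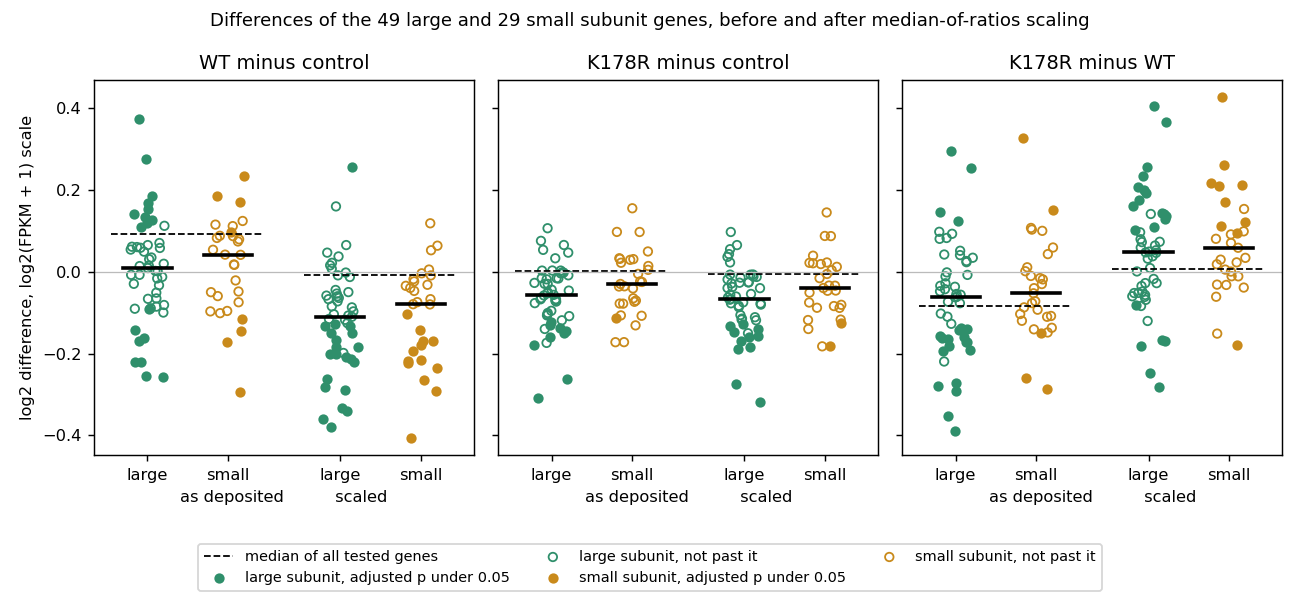
Log2 differences (y axis, log2(FPKM + 1) scale) of the 49 large and 29 small subunit genes by name in the 3 comparisons, as deposited and after median-of-ratios scaling. Filled points passed the test, black bars are medians and dashed lines the median of all 11445 tested genes, and in WT minus control the member medians lie below the dashed line on both scales.

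In the K178R line no member was higher than in the control line and 10 were lower, beside 11.7% of all tested genes higher and 11.1% lower. At an unadjusted p under 0.05 in the same limma fit, 3 were higher and 22 lower. The share of members lower, 12.8%, lay near that of all genes. The large subunit held 9 of the 10 and the small subunit 1, with median differences of -0.0561 and -0.0294. The median log2 difference was -0.0445 over members and 0.00246 over all tested genes, and scaling gave 0 higher (3 at an unadjusted p under 0.05) and 13 lower, beside 10.9% and 11.9%. Values of the lines did not overlap for 38 members (48.7%), against 63.1% of all tested genes.

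MRPL38, of the central protuberance that faces the small subunit, had 77.3 and 76.0 FPKM in K178R, 84.4 and 84.5 FPKM in WT and 84.6 and 85.2 FPKM in control libraries. The K178R pair was lowest, with a log2 difference to control of -0.15 ± 0.0244 (adjusted p = 0.00603), and its call held in all 4 fits that left out a library. MRPL2, a bacterial homologue of the large subunit core, had 26.6 and 25.2 FPKM in K178R, 32.6 and 30.6 FPKM in WT and 30.3 and 32.2 FPKM in control libraries. The K178R pair was again lowest, with a difference of -0.26 ± 0.047 (adjusted p = 0.00757), which missed the threshold without control replicate 2 (adjusted p = 0.0527). MRPL52, also of the central protuberance, had 6.16 and 7.33 FPKM in K178R, 8.61 and 7.41 FPKM in WT and 8.70 and 8.42 FPKM in control libraries. It lost its call without K178R replicate 1 or either control library (up to 0.175), MRPL9 without K178R replicate 2 or either control library (up to 0.114) and MRPL49 without either K178R library or control replicate 1 (up to 0.0924). MRPL35, MRPL36, MRPL39, MRPL51 and MRPS35 lost theirs without any one of the 4 libraries (adjusted p = 0.0524 to 0.196). Leaving out either K178R library or control replicate 2 reduced the count of members lower to 4, and control replicate 1 to 2. MRPL9, MRPL39 and MRPS35 were called lower than control in both TEAD4 lines, comparisons that share the control libraries.

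Set against the WT line, the K178R line had 6 members higher and 20 lower as deposited, beside 10.4% and 34.5% of all tested genes. With scaling it had 24 higher and 7 lower, beside 22.7% and 19.8%, so the balance of calls turned with the scale, although no member was called in opposite directions on the 2 scales. The median log2 difference was -0.0581 over members and -0.0838 over all tested genes as deposited, and 0.0487 and 0.00835 with scaling. The lines did not overlap for 50 members (64.1%), against 74.2% of all tested genes.

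Calls that stood on both scales and in each fit leaving out 1 library were MRPL12, MRPL16, MRPL20, MRPL3 and MRPS25, higher in K178R, and MRPL2, MRPL48, MRPL49, MRPL50, MRPL53, MRPL57 and MRPS33, lower in K178R. MRPS25 had the largest rise among members, with a K178R mean of 11.6 ± 0.203 FPKM and a WT mean of 9.09 ± 0.553 FPKM (SD, n = 2 each), a log2 difference of 0.33 ± 0.0474 (adjusted p = 0.00167). MRPL20 followed at 0.30 ± 0.0278 and MRPL12 at 0.26 ± 0.0437. MRPL53 had the largest fall, at -0.39 ± 0.0708 (adjusted p = 0.00409). MRPL48, of the central protuberance, had 12.7 and 11.6 FPKM in K178R, 16.9 and 14.7 FPKM in WT and 13.0 and 12.7 FPKM in control libraries. MRPL50 had 39.5 and 40.6 FPKM in K178R, 51.4 and 47.2 FPKM in WT and 42.2 and 44.2 FPKM in control libraries. In both genes the WT pair stood above the other 4 libraries. MRPS26 was called higher on both scales but lost the call without either K178R library or WT replicate 1 (up to 0.146). A further 13 members were called lower as deposited and not with scaling. Of these, 8 also lost the call when 1 library was left out, with the highest adjusted p of each between 0.0635 and 0.216.

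Most other members with known roles at the functional sites missed the threshold. MRPL10, which anchors the stalk, had 46.6 and 44.3 FPKM in K178R, 46.3 and 44.7 FPKM in WT and 48.0 and 49.6 FPKM in control libraries. MRPL11, at the stalk base, had 21.1 and 23.9 FPKM in K178R, 20.6 and 21.4 FPKM in WT and 23.7 and 21.2 FPKM in control libraries. Neither passed the test as deposited, whereas with scaling both were called lower in WT than in control and higher in K178R than in WT. MRPL45, which contacts the inner membrane near the tunnel exit, MRPL44, MRPL58, a peptidyl-tRNA hydrolase built into the large subunit, and MRPS12, of the decoding site, passed no test as deposited. With scaling, MRPL45 and MRPL58 were called lower in WT than in control, and MRPL58 was called higher in K178R than in WT (adjusted p = 0.00311). Of the 8 genes of the central protuberance, 1 was higher in WT than in control (MRPL48) and 2 lower in K178R than in control (MRPL38 and MRPL52). Of all tested genes, 37.6% were higher in the first comparison and 11.1% lower in the second. With scaling 0 of the 8 were higher in WT (1 at an unadjusted p under 0.05 in limma) and 2 lower (MRPL38 and MRPL40), beside 22.5% and 25.2%. On that scale 2 were lower in K178R than in control, beside 11.9%. The paralogues MRPS18A, MRPS18B and MRPS18C differed. As deposited, MRPS18A was called higher and MRPS18C lower in WT than in control. MRPS18B passed neither test against control and was called lower in K178R than in WT. Of these calls only that of MRPS18C was kept with scaling, and each was lost in some fits that left out a library. MRPS18A and MRPS30 carry small subunit names but are known to sit in the large subunit, and MRPS36 is known to belong to the oxoglutarate dehydrogenase complex. As deposited, MRPS36 and MRPS30 passed no test, and with scaling MRPS30 was called lower in WT than in control and higher in K178R than in WT (adjusted p = 0.0121).

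Counts were also taken by structural class, beside 37.6% of all tested genes higher and 12.2% lower in WT than in control as deposited. These classes follow known position rather than name, so MRPS18A and MRPS30 count in the large subunit and MRPS36 in no class. Of 30 large subunit proteins with bacterial homologues, 5 were higher and 6 lower in WT than in control, and of 21 mitochondria-specific ones 6 were higher and 2 lower. Of 16 small subunit proteins with bacterial homologues 2 were higher and 2 lower, and of 10 mitochondria-specific ones 1 was higher and 2 lower. With scaling, where 22.5% of all tested genes were higher and 25.2% lower, the large subunit classes had 0 higher and 12 lower among bacterial homologues and 1 higher and 9 lower among mitochondria-specific proteins. The small subunit classes then had 0 higher and 6 lower among bacterial homologues and 0 higher and 6 lower among mitochondria-specific proteins. No class with a scaled count of 0 higher had a member higher at an unadjusted p under 0.05. No test compared the classes. In K178R against control, 11.7% of all tested genes were higher and 11.1% lower. There, 4 large subunit proteins with bacterial homologues and 5 mitochondria-specific ones were lower, as was 1 mitochondria-specific small subunit protein. None of the 4 classes had a member higher. At an unadjusted p under 0.05 in that limma fit, 1 large and 2 small subunit bacterial homologues were higher. With scaling, 5 large subunit bacterial homologues, 6 mitochondria-specific large subunit proteins and 1 protein of each small subunit class were lower. The share of all tested genes lower on that scale was 11.9%.

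A list of 6 genes with other names held mitoribosome proteins and OXA1L. In WT against control 1 was higher and 1 lower, beside 37.6% and 12.2% of all tested genes. With scaling 0 were higher (also 0 at an unadjusted p under 0.05 in limma) and 2 lower, beside 22.5% and 25.2%. In K178R against control 1 was higher and 1 lower, beside 11.7% and 11.1%. With scaling these were 1 and 2, beside 10.9% and 11.9%. AURKAIP1 of the small subunit was lower in WT than in control. It had 72.4 and 70.1 FPKM in K178R, 69.4 and 66.1 FPKM in WT and 77.2 and 76.5 FPKM in control libraries. OXA1L, the insertase that takes nascent chains from this ribosome into the inner membrane, had 77.7 and 78.6 FPKM in K178R, 75.7 and 77.2 FPKM in WT and 66.8 and 68.5 FPKM in control libraries. Both TEAD4 lines stood above the control line. With scaling the WT call was lost and the K178R call was kept.

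Other genes of mitochondrial translation and its regulation were read beside the members, with FPKM as deposited unless scaling is named. All-gene shares were 37.6% higher and 12.2% lower in WT against control (22.5% and 25.2% with scaling), and 11.7% and 11.1% in K178R against control. Of 26 assembly factors, 2 were higher and 5 lower in WT than in control, and 2 higher and 3 lower in K178R than in control. With scaling 0 were higher (1 at an unadjusted p under 0.05 in limma) and 12 lower in WT. Of 19 translation factors, 2 were higher and 2 lower in WT, and 1 higher and 2 lower in K178R, and with scaling 1 was higher and 7 lower in WT. GUF1, the mitochondrial relative of the bacterial elongation factor LepA, had 17.7 and 18.1 FPKM in K178R, 13.8 and 14.9 FPKM in WT and 20.5 and 20.1 FPKM in control libraries, and the 3 lines did not overlap. Its log2 difference was -0.48 ± 0.0431 in WT (adjusted p = 0.000178) and -0.17 ± 0.0431 in K178R (adjusted p = 0.0286). Of 17 mitochondrial tRNA synthetases, 2 were higher and 2 lower in WT and 1 each way in K178R, and with scaling 2 were higher and 6 lower in WT. SARS2, the seryl-tRNA synthetase, had 13.7 and 14.4 FPKM in K178R, 16.6 and 16.96 FPKM in WT and 12.2 and 12.7 FPKM in control libraries, highest in the WT pair. Of 9 genes of mitochondrial transcription and DNA maintenance, 2 were higher and 4 lower in WT, and with scaling 0 were higher (1 at an unadjusted p under 0.05) and 4 lower. POLRMT, the mitochondrial RNA polymerase, had 33.2 and 36.1 FPKM in K178R, 33.6 and 34.2 FPKM in WT and 37.6 and 38.7 FPKM in control libraries, and was called lower in WT at -0.17 ± 0.0425 (adjusted p = 0.0145). Of the 8 biogenesis regulators tested, 3 were higher and 1 lower in WT and 2 higher in K178R, and with scaling 2 were higher and 4 lower in WT. MYC, a regulator of ribosome and mitochondrial genes, had 82.7 and 83.0 FPKM in K178R, 80.7 and 80.2 FPKM in WT and 58.5 and 59.6 FPKM in control libraries. Both TEAD4 lines lay above the control line. PPRC1, a coactivator related to PGC-1, had 28.5 and 28.2 FPKM in K178R, 24.1 and 23.6 FPKM in WT and 29.2 and 28.7 FPKM in control libraries, lowest in the WT pair.

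The respiratory chain, whose mitochondrially encoded subunits this ribosome makes, and the cytosolic ribosome are given beside the members for comparison. Of all tested genes, 37.6% were higher and 12.2% lower in WT against control (22.5% and 25.2% with scaling). In K178R against control these shares were 11.7% and 11.1% (10.9% and 11.9% with scaling). In WT against control, 60 of 80 tested nuclear genes of the respiratory chain and ATP synthase were higher and none lower (also none at an unadjusted p under 0.05), and with scaling 24 were higher and 5 lower. Of 83 cytosolic ribosomal protein genes, 52 were higher and none lower (also none at an unadjusted p under 0.05), and with scaling 9 were higher and 14 lower. In K178R against control, 3 respiratory chain genes were higher and 7 lower, and 1 cytosolic ribosomal protein gene was higher and 49 lower. With scaling these were 3 and 9, and 1 and 54. Against the WT line, K178R had 66 respiratory chain genes and 76 cytosolic ribosomal protein genes lower as deposited, beside 34.5% of all tested genes. With scaling it had 31 and 52 lower, beside 19.8% of all tested genes. The median log2 difference in WT against control was 0.199 for the respiratory chain, 0.115 for the cytosolic ribosome and 0.0164 for members, beside 0.0926 for all tested genes. With scaling these medians were 0.0782, -0.00719 and -0.103, beside -0.00813 for all tested genes, so those of the cytosolic ribosome and of members changed sign. No test compared one list with another.

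**Figure D5:**
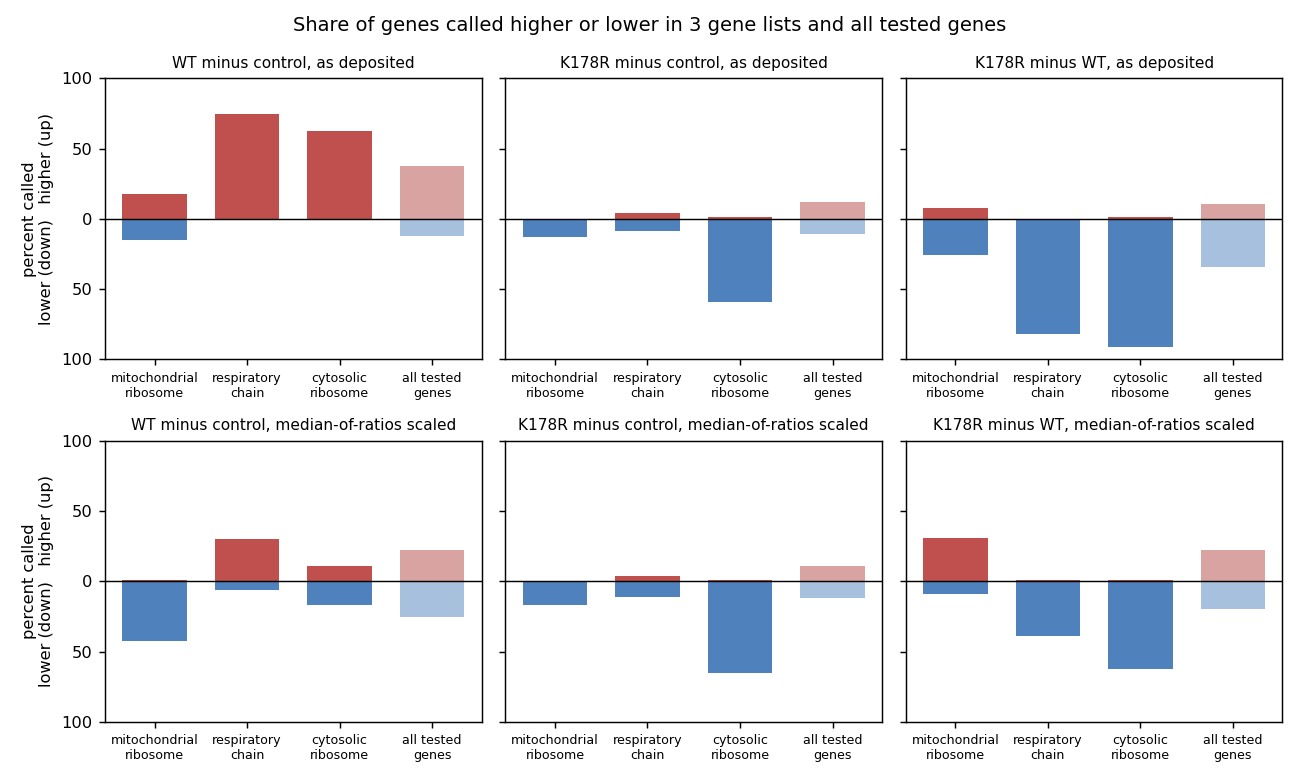
Percent of genes called higher (upward, red) and lower (downward, blue) among members, respiratory chain genes, cytosolic ribosomal protein genes and all tested genes (paler), as deposited (top) and scaled (bottom). In WT minus control as deposited, 75% of the respiratory chain genes were higher and 0 lower, against 17.9% and 15.4% of members. Of all tested genes, 37.6% were higher and 12.2% lower.

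Genome position limits how far some values belong to one gene. In the GENCODE release 29 annotation the exons of 41 members overlap another gene, 29 of them a protein-coding gene by over 100 bases, and the sources do not state whether counting used strand. MRPS25 shares 1197 exon bases with NR2C2 on the opposite strand. NR2C2 was also lowest in the WT pair, with 5.73 and 5.55 FPKM in K178R, 4.46 and 4.67 FPKM in WT and 5.68 and 5.62 FPKM in control libraries. As deposited, the K178R and control libraries of NR2C2 overlapped, while those of MRPS25 did not. That difference in MRPS25 was not called in limma (log2 difference 0.0319, adjusted p = 0.671). With scaling, the K178R and control libraries of MRPS25 overlapped as well. Whether the MRPS25 values are separate from those of NR2C2 was not tested. MRPL53 shares 608 bases with CCDC142 on its own strand, which had 2.55 and 2.08 FPKM in K178R, 2.83 and 2.62 FPKM in WT and 2.20 and 2.31 FPKM in control libraries and passed no test. MRPL12 shares 701 bases with a gene model that spans both it and SLC25A10, and SLC25A10 was higher in both TEAD4 lines than in control. MRPL38 and MRPL2 also overlap other protein-coding genes, by 1373 and 373 bases, while MRPL3, MRPL16 and MRPL39 overlap none. Named pseudogenes exist for 34 members, 75 in all, and reads shared with them are uncertain.

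A protein-coding gene starts on the opposite strand within 1000 bases of 18 members (23.1%), against 11.3% of 11340 tested protein-coding genes. MRPL46 and MRPS11 face each other in this way. MRPL47 starts 36 bases from NDUFB5, a subunit of complex I. NDUFB5 had 58.8 and 57.9 FPKM in K178R, 74.3 and 72.5 FPKM in WT and 60.3 and 60.5 FPKM in control libraries, and like MRPL47 it was called higher in WT than in control and lower in K178R than in WT. Scaling removed both of the MRPL47 calls and neither of those of NDUFB5. As deposited, MRPL50 and its neighbour ZNF189 were also both called higher in WT than in control. In several other pairs the calls in WT against control as deposited differed. MITD1, PSMA2 and APBA3 were called higher in WT, while MRPL30, MRPL32 and MRPL54 were not called. MRPL13 and MRPL57 were called higher and MRPS18C lower, while MTBP, SKA3 and HELQ were not called. TCP1 was called lower and MRPL18 was not. Neither gene was called in the pairs of MRPL21, MRPL27, MRPL36 and MRPS34 or in that of MRPL46 and MRPS11. In K178R against WT as deposited, MRPL36 and its neighbour NDUFS6 were both called lower, as were MRPL57 and SKA3. The pairs of MRPL13, MRPL18, MRPL30, MRPL32, MRPL50 and MRPL54 had a call for only a single gene there. Whether such neighbours move together was not tested.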

How the data were processed

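RNA was extracted with Trizol, and libraries were made with the Illumina TruSeq RNA kit, per the labels' protocols. The submitters' processing notes name Bowtie 0.12.2 and the hg18 build. Which program made the values is not given in the sources used here, and FPKM values, 1 per gene, are what the authors deposited, in 1 file per library and without counts, so a count test was not used. The 4 rows with a repeated identifier were left out. The 11445 genes that reached 0.5 FPKM in 2 or more libraries were tested. Values were taken as log2(FPKM + 1) from the FPKM the authors deposited, and 1 limma fit (limma 3.58.1, R 4.3.3, trend on) over all 6 libraries gave the 3 comparisons, with Benjamini-Hochberg adjustment over all tested genes and a threshold of 0.05. Fold changes on this scale understate those of low genes. The same fit was run after median-of-ratios scaling. Scripts were tested on simulated data. The members, gene lists and rules for named genes (the largest changes per comparison, calls on both scales and members with a fixed role) were chosen with earlier results of these data known. Alternatives tried were other scalings, pseudocounts, filters, a replicate block, no trend and leaving out each library. Gene positions are GENCODE release 29 (GRCh38), not the build of the files. Coordinates were used only for annotation and RefSeq promoters. Precision rests on the 2 libraries of each line.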

Additional observations from a re-analysis of the deposited data

How the results depend on the processing

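With FPKM as deposited, 14 members were higher and 12 lower in WT than in control. The counts were 1 and 33 with median-of-ratios scaling, 5 and 26 with upper-quartile scaling, 1 and 30 with median-of-ratios over tested genes and 6 and 19 with equal total FPKM. Without the trend 9 were higher, and with the control libraries averaged 8. The median log2 difference, 0.0164, became -0.103, -0.0536, -0.0892 and -0.0273 under the 4 scalings in that order. For K178R against control, 0 were higher and 10 lower. Equal totals gave 4 higher, 2 lower and a median of 0.00185, a fit of only the 4 libraries gave 1 higher, and the lower count was 4 with no filter, 3 without the trend and 2 with averaged controls. For K178R against WT, the 6 higher became 24, 13, 19 and 15, the 20 lower became 7, 10, 8 and 8, and the median of -0.0581 became 0.0487, 0.00855, 0.0369 and 0.0299 under the 4 scalings. The cause was not tested. Scaling over tested genes and to equal totals were chosen after seeing the data.

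Leaving out 1 library, where the lone library is assumed to vary like the others, gave 6 to 13 higher and 7 to 11 lower in WT against control, with medians of 0.00114 to 0.0184, and 2 to 4 lower in K178R against control. The large minus small subunit median, -0.0324, -0.0267 and -0.00819 in the 3 comparisons, ranged from -0.0277 to 0.00579, from -0.0427 to 0.00498 and from -0.0298 to 0.00204, so no difference between subunits is claimed. In K178R against WT, MRPL10 (0.109) and MRPL9 (0.102) turned positive with median-of-ratios scaling, and MRPL46, -0.011 with all libraries, ranged from -0.202 to 0.18 when 1 library was left out.

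Same-numbered libraries showed no strong shared deviation over the tested genes (correlations of same-numbered deviations were 0.0323, -0.0311 and 0.0154). These values cannot tell whether such libraries were grown or prepared together. With the replicate block, 13 members were higher and 12 lower in WT against control, 0 and 8 in K178R against control and 6 and 22 in K178R against WT. Over all genes, scaling moved WT against control to 22.5% higher and 25.2% lower, against 37.6% and 12.2% as deposited. FPKM without counts gives no counting error, and 2 libraries per line limit small differences.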
